A study of Mus musculus with 26 samples.

Results

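Bone marrow macrophages from wild-type (WT) mice, cultured for 3 days with M-CSF and RANKL in the presence of the Cox2 inhibitor NS398, were compared with the same cells cultured with M-CSF and RANKL and no inhibitor. The comparison holds 8 of the 26 arrays of the series, 4 with NS398 and 4 without, which were chosen by the sample labels alone. The tested cells had received NS398 at 0.1 µM, a concentration written as µm in the series text, and the sources used here give no M-CSF or RANKL dose for this experiment. Cells that lack the Cox2 gene (KO), without and with the Cox2 product prostaglandin E2 (PGE2) at 1 µM, were grown on the same schedule in 4 arrays each. A separate experiment held WT cells treated for 1 day with M-CSF and RANKL at 30 ng/ml each (3 arrays) and WT cells given M-CSF alone (4 arrays). All cells came from male CD1 mice aged 2 months, and M-CSF at 100 ng/ml had been used to expand their marrow cells beforehand. The labels do not say whether each array stands for its own mouse, so the p-values measure the spread between these samples, which may be in part technical.

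Cyclooxygenase-2 (Cox2), encoded by Ptgs2, converts arachidonic acid to the unstable prostaglandin H2, which terminal synthases such as the Ptges product turn into PGE2. PGE2 acts on its receptors EP2 and EP4 to raise cyclic AMP. RANKL, a cytokine of the tumour necrosis factor family, drives macrophages to become osteoclasts through TRAF6, NF-kappaB and NFATc1, while M-CSF keeps the cells alive. NS398 blocks the enzyme activity of Cox2 and leaves its gene in place, whereas the knockout removes the gene. Ptgs2 was not among the named probes, and its level was not analysed here, so the arrays hold no direct check of enzyme inhibition.

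The arrays measured 25697 probes, and 18961 passed a filter on dim probes. Of these, 7133 carry a gene name, because the authors listed them in at least 1 of their comparison tables. They stand for 5704 genes when each gene is taken at its brightest probe. Values are linear intensities that the authors had scaled to the same distribution on every array of the experiment, so each change is relative to all other probes. The correlation across probes ran between 0.980 and 0.993 among the 4 NS398 arrays and between 0.972 and 0.993 among the 4 untreated arrays. It ran between 0.958 and 0.981 across the groups. Within each group the arrays fell into close pairs, with NS398 arrays 17 and 18 at 0.993, NS398 arrays 13 and 16r at 0.987, untreated arrays 2 and 4 at 0.993 and untreated arrays 3 and 6 at 0.990. The sources used here do not explain the r after some title numbers. Precision is limited by the small number of arrays.

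With NS398, 563 probes were higher and 563 were lower than in untreated cells at a Benjamini-Hochberg adjusted p under 0.05 in limma, 2.97% of all probes tested in each direction. The falls reached further than the rises. A log2 change of 1 or more was seen for 118 lower and 78 higher probes, and a change of 2 or more for 30 lower and 4 higher probes. The median log2 change was -0.61 among the lower and 0.57 among the higher probes. Among named genes at their brightest probe, 420 were higher, or 7.36%, and 424 were lower, or 7.43%. Since a probe has a name here only where the authors found it to differ in some comparison, these shares are above those of all probes, and the counts in the gene groups below are read against them. The size of a change in such bulk RNA cannot be told apart from a change in the share of cells that express the gene.

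The largest falls were in secreted inflammatory proteins. Il1b, which encodes interleukin-1 beta, a cytokine that acts on bone and on innate immune cells, measured 392, 396, 345 and 365 in the 4 NS398 arrays, against 15108, 21393, 15585 and 22412 in the 4 untreated arrays. Every NS398 array lay far below every untreated array. The log2 change was -5.62 ± 0.13 (SE, limma adjusted p = 1.9e-13), the largest among all named probes called. Saa3, an acute-phase serum amyloid A protein that macrophages secrete, measured 178, 176, 266 and 232 with NS398 and 5722, 3336, 8320 and 5902 without. The groups again lay apart, although the untreated arrays differed from each other by more than those of Il1b. The log2 change of Saa3 was -4.72 ± 0.24 (limma adjusted p = 3.4e-09).

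Socs3, Cxcl1 and Arg1 came next and encode signalling and secreted proteins. Socs3, the feedback inhibitor of JAK and STAT3 signalling, measured 523, 563, 541 and 727 with NS398 and 9205, 10780, 7288 and 9945 without, a log2 change of -3.98 ± 0.14 (limma adjusted p = 2.9e-11). Cxcl1, a chemokine that attracts neutrophils, stayed well above background with NS398, at 2466, 2327, 3285 and 3951, against 27363, 24509, 22991 and 29073 without. Its log2 change was -3.14 ± 0.15 (limma adjusted p = 2.1e-09). Arg1, which encodes the arginine-degrading enzyme arginase 1, measured 139, 152, 139 and 139 with NS398, a level not above background by the authors' deposited detection p-value, and 1301, 1117, 1222 and 1218 without. Its level was therefore at least 8.49-fold lower with NS398 (limma adjusted p = 2.7e-10). In none of these genes did a single NS398 array reach the lowest untreated one.

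The other 10 of the 15 largest falls lay between -2.86 and -2.41 on the log2 scale. Tnf, the cytokine tumour necrosis factor, measured 910, 791, 629 and 737 with NS398 and 4547, 4647, 4355 and 4361 without, a log2 change of -2.56 ± 0.13 (limma adjusted p = 3.6e-09). Il1a, encoding interleukin-1 alpha, averaged 167 ± 29.1 with NS398 and 1247 ± 404 without (SD, n = 4 each). The synthase that makes PGE2 itself was among them. Ptges, encoding the inducible PGE2 synthase, measured 140, 184, 217 and 209 with NS398 and 1496, 724, 2010 and 954 without, a log2 change of -2.70 ± 0.24 (limma adjusted p = 1.7e-06), and a different Ptges probe fell by 1.33. Cd40, a costimulatory receptor of antigen-presenting cells, measured 655, 645, 531 and 658 with NS398 and 3960, 3453, 3968 and 3793 without, so the arrays of each group lay close together. Gja1, the gap junction protein connexin 43, averaged 444 ± 39.8 with NS398 and 2641 ± 141 without (SD, n = 4 each). Serpinb2 (plasminogen activator inhibitor 2), Ier3 (an immediate-early survival protein), Chil1 (a secreted chitinase-like protein), Ccrl2 (a chemerin-binding receptor) and Pdpn (podoplanin, a membrane glycoprotein) completed the group. All 15 were lower in every NS398 array than in every untreated array, which was a condition of their choice.

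The largest rises were smaller and of a different kind. Ccnd1, encoding cyclin D1, which drives entry into the cell cycle, measured 1341, 1461, 2163 and 2050 with NS398 and 336, 282, 364 and 326 without. The log2 change was 2.40 ± 0.17 (limma adjusted p = 1.2e-07), and its other probes rose by 2.39 and 1.76. Rgs1, a regulator that shortens G protein signalling, measured 1802, 1887, 1653 and 1718 with NS398 and 391, 496, 336 and 519 without, a log2 change of 2.04 ± 0.15 (limma adjusted p = 1.8e-07). Egr2, a zinc finger transcription factor, was similar in its tight spread, at 2459, 2857, 2379 and 2473 with NS398 and 633, 777, 594 and 716 without, a log2 change of 1.91 ± 0.12 (limma adjusted p = 3e-08). For each of these genes every NS398 array lay far above every untreated array, and a lack of overlap was a condition of the choice of all 15 rises.

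Several of the risen genes encode surface and antigen-presentation proteins of macrophages. Clec7a (dectin-1, the receptor for fungal beta-glucan) measured 2791, 1927, 1989 and 2113 with NS398 and 458, 958, 394 and 739 without, a log2 change of 1.87 ± 0.23 (limma adjusted p = 7e-05). Cnr2, the cannabinoid receptor of immune cells, measured 854, 583, 722 and 575 with NS398 and 201, 212, 163 and 185 without, a log2 change of 1.83 ± 0.14 (limma adjusted p = 3.7e-07). H2-Ab1 and Cd74, the beta chain and the invariant chain of MHC class II, rose by 1.61 ± 0.16 and 1.46 ± 0.11 on the log2 scale (limma adjusted p = 6.1e-06 and 3e-07). In both, every NS398 array lay above every untreated array, as their choice required. Lyz (lysozyme) measured 1233, 2175, 1221 and 1623 with NS398 and 512, 578, 318 and 332 without. Adgre1, which encodes the macrophage antigen F4/80, depended on the probe. One probe averaged 1043 ± 168 with NS398 and 399 ± 179 without (SD, n = 4 each), a log2 change of 1.48 ± 0.30 (limma adjusted p = 0.005), while its other probes changed by 0.50 (limma adjusted p = 0.23) and 0.24 (limma adjusted p = 0.74). Arhgap25, a GTPase-activating protein for Rac, rose by 2.23 at its leading probe and by 0.49 at another. Lpar6 (a receptor for lysophosphatidic acid), Htr2b (a serotonin receptor), Apobec1 (a cytidine deaminase), Snx24 (a sorting nexin) and Stap1 (an adaptor protein) made up the 15, with log2 changes of 1.69 or less.

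**Figure D1:**
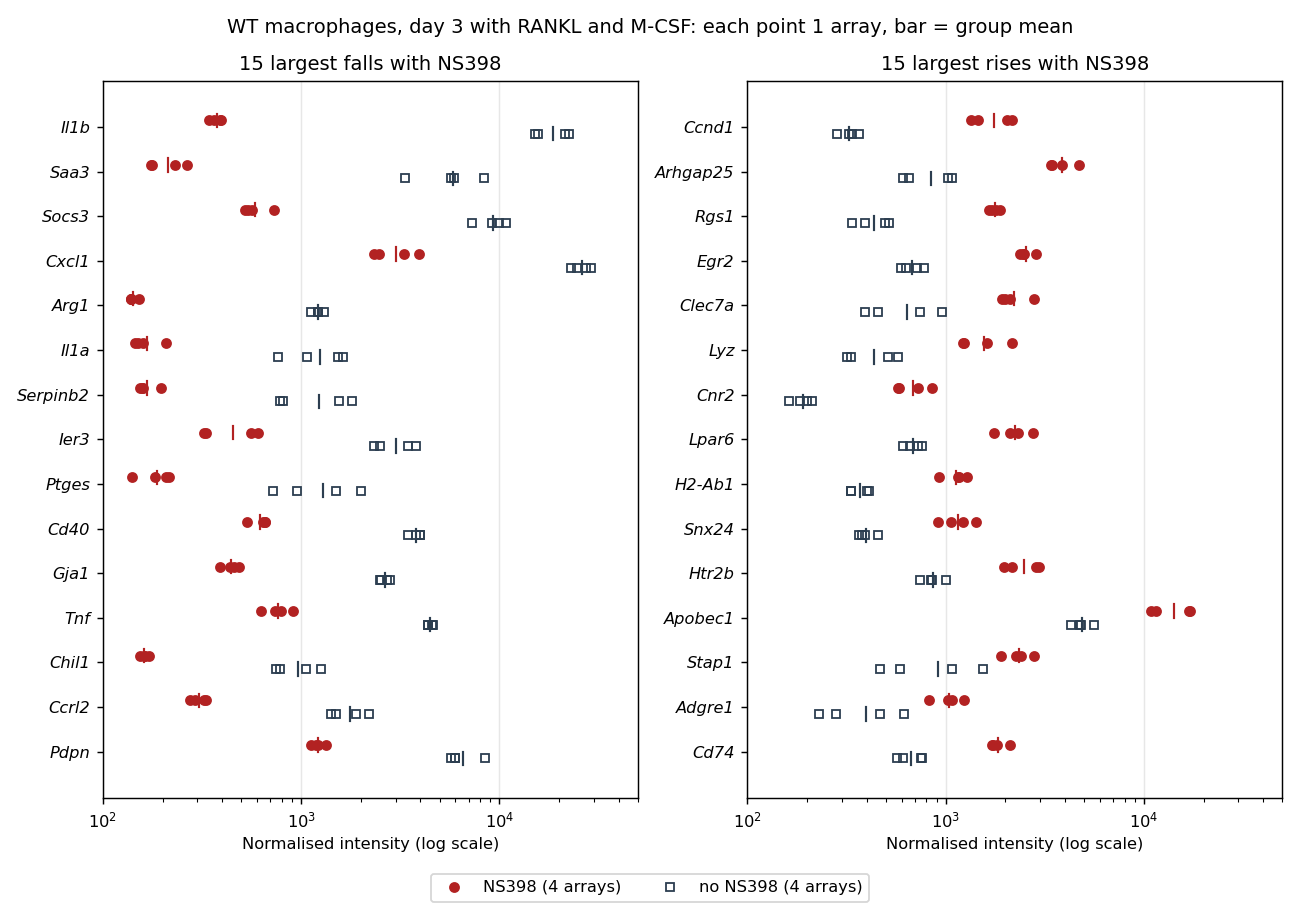
Intensity on each array, on a log axis, of the 15 genes with the largest fall (left) and the 15 with the largest rise (right), with filled points for the 4 NS398 arrays, open squares for the 4 untreated arrays and a bar at each group's mean. The points of the groups do not overlap for any gene, which was a condition of their choice. Il1b spans the widest gap, with means of 374 and 18625.

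The proximal promoters of the genes with the largest falls were read for sites of the factors named above, since Socs3 is a STAT3 target and many of the others are NF-kappaB targets. Of the 15 genes, 13 had a promoter in the RefSeq table (GRCm38.p6), each window running from 250 bases before to 50 bases after the transcript start. In 4 of these 13, or 30.8%, the window held the kappaB consensus on either strand, against 4.3% of 27025 genes of the table and 5.4% of 4463 named genes tested. The share was 18.1% among 72 genes lower by 1 or more on the log2 scale, 11% among 318 genes called lower and 6.9% among 304 called higher. The STAT motif TTCNNNGAA was in 19.4% of the 72 but in 7.9% of the 318. It was in 6.9% of the named genes tested and 8.5% of all genes of the table. The cyclic AMP response element TGACGTCA was in 1.4% of the 72 and in 3.4% of the named genes, and its shorter core TGACG in 22.2% and 32.8%. The AP-1 motif TGANTCA was in 13.9% of the 72, 23.1% of the 13 and 10.1% of the 318. It was in 5.8% of the named genes and 7.9% of all genes of the table. The C/EBP motif TTGCNNAAT was in 5.6% of the 72 (4 genes), 15.4% of the 13 (2 genes) and 1.9% of the 318. It was in 2% of the named genes and 2.4% of all genes of the table. These are matches of letters and do not show that a factor binds there, and they were compared with no test. The stretches below, of 100 bases each and all upstream of the start, are the 4 with a kappaB match and 1 Socs3 stretch with a STAT match, and the capitals mark the match.
Cxcl1, chr5:90891129-90891228, plus strand: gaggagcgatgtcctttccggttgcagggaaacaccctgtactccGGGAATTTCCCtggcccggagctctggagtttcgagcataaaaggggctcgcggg
Ccrl2, chr9:111057520-111057619, minus strand: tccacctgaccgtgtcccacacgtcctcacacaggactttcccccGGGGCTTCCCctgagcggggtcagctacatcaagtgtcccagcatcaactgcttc
Ier3, chr17:35821576-35821675, plus strand: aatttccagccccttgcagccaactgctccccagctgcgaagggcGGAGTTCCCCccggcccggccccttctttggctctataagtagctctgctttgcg
Chil1, chr1:134181932-134182031, plus strand: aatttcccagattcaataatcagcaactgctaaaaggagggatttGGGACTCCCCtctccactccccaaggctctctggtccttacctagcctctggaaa
Socs3, chr11:117969467-117969566, minus strand: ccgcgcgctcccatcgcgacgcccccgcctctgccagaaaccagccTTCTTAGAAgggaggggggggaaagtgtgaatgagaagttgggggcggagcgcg

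In Cxcl1 the capitals hold 2 overlapping matches, and they end 61 bases before the start. The Ccrl2 stretch belongs to 1 of its 3 starts. The windows of Il1b and Tnf held none of the motifs searched, which says nothing about sites further from the start.

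NF-kappaB feedback and target genes were the group with the most uniform fall. Of 23 measured members 18 were lower and 0 higher, and all 23 log2 changes were below 0, with a median of -1.20 against 0.00 over all named genes. Beside Cd40, the 3 with the smallest p were Tnip1, Cd83 and Nfkbie. Tnip1, which restrains NF-kappaB signalling through A20, averaged 4043 ± 672 with NS398 and 13217 ± 2060 without (SD, n = 4 each), a log2 change of -1.71. Cd83, a maturation marker of antigen-presenting cells, changed by -1.65, and Nfkbie, which holds NF-kappaB in the cytoplasm, by -1.37. The inhibitors of the pathway fell together with its subunits. Among inhibitors, Nfkbia averaged 3760 ± 295 with NS398 and 8609 ± 562 without (SD, n = 4 each). Tnfaip3 (A20) changed by -1.28 and Zc3h12a, an RNase that degrades cytokine mRNAs, by -1.23. Nfkbiz, a nuclear member of the IkappaB family, changed by -1.43. Among subunits, Relb changed by -1.04, Nfkb2 by -0.97 and Nfkb1 by -0.84. Icam1, the adhesion receptor for leukocytes, averaged 1239 ± 205 with NS398 and 4042 ± 707 without (SD, n = 4 each), a log2 change of -1.70. When a gene with several probes was taken at the median of its probes, the median of the group was -1.01.

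Among inflammatory cytokines and chemokines 16 of 34 were lower and 2 higher, with a median of -0.47. Osm, the interleukin-6 family cytokine oncostatin M, averaged 733 ± 89.4 with NS398 and 2942 ± 559 without (SD, n = 4 each), a log2 change of -1.99 (limma adjusted p = 1.7e-07). A different Osm probe changed by -0.4 (limma adjusted p = 0.0039). Il10, an anti-inflammatory cytokine, fell with the inflammatory ones, at 156 ± 18.6 with NS398 and 732 ± 73.7 without (SD, n = 4 each), a log2 change of -2.24 (limma adjusted p = 2.6e-07). Cxcl2 (-2.02), Ccl5 (-1.83), Ccl4 (-1.29) and Ccl3 (-1.18), chemokines for neutrophils, T cells and monocytes, also fell on the log2 scale. Il1rn, the secreted antagonist of interleukin-1, averaged 1781 ± 215 with NS398 and 3618 ± 758 without (SD, n = 4 each), a log2 change of -1.01 and so a smaller fall than those of Il1a and Il1b. Lif, a further interleukin-6 family cytokine, changed by -0.76. The costimulatory ligand Tnfsf9 was at least 2.16-fold lower with NS398, the neutrophil chemokine Cxcl5 at least 1.77-fold and the granulocyte growth factor Csf3 at least 1.32-fold, each not above background with NS398. Cxcl9 rose by 0.30 and Ccl6 by 0.60, and 1 member was higher without NS398 array 18 or untreated array 2 or 4.

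Acute-phase and secreted defence genes followed, with 9 of 19 lower, 1 higher and a median of -0.40. The call count rested in part on 1 array, since 5 were lower when untreated array 2 was left out. Lcn2, the iron-withholding protein lipocalin 2, averaged 139 ± 5.37 with NS398, not above background, and 539 ± 135 without (SD, n = 4 each), at least 3.78-fold lower with NS398 (limma adjusted p = 3.7e-07). Slpi, a secreted protease inhibitor, changed by -0.79. The higher member was Lyz. Genes of STAT3 and cytokine-signal feedback had 9 of 18 lower and 0 higher, with a median of -0.43. The other fallen feedback genes were smaller in change, with Socs2 at -0.73 and Cish, another SOCS family member, at least 1.75-fold lower with NS398. Jak2, the kinase upstream of STAT3, changed by -1.26, and Socs3 by -3.98.

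Pattern-recognition, lectin and chemotactic receptors divided. Of 29 measured, 12 were lower and 4 higher, with a median of -0.35. Fpr2, a formyl peptide receptor that also binds serum amyloid A, averaged 2255 ± 447 with NS398 and 9977 ± 1541 without (SD, n = 4 each), a log2 change of -2.15 (limma adjusted p = 7.9e-08). Tlr2, the receptor for bacterial lipoproteins, measured 10849, 13472, 6151 and 6815 with NS398 and 30160, 30160, 23395 and 27800 without, a log2 change of -1.65 ± 0.23 (limma adjusted p = 0.00019). The 4 NS398 arrays fell into a lower and a higher pair for Tlr2, and both pairs lay below all untreated arrays. Clec4e (Mincle, the receptor for mycobacterial cord factor) changed by -1.83, Nlrp3 (the inflammasome sensor) by -1.42 and Cd14 (a co-receptor for lipopolysaccharide) by -0.97. Trem1, which amplifies inflammatory signalling, was at least 2.40-fold lower with NS398 at one probe and changed by -0.09 at another (limma adjusted p = 0.75). Clec7a, Tlr13 (1.07) and Cx3cr1 (0.88) were among the higher members, on the log2 scale.

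Genes of the cyclic AMP and CREB response, the pathway downstream of the PGE2 receptors, had 12 of 26 lower and 4 higher, with a median of -0.30. The epidermal growth factor receptor ligands fell, Hbegf by 1.13 on the log2 scale and Areg, not above background with NS398, at least 2.26-fold. The transcription factors Egr1 and Cebpb changed by -0.63 and -0.68 and Odc1, which starts polyamine synthesis, by -0.71. Arg1, Il10 and Osm, described above, are also in this list. The higher ones were Rgs1, Egr2, Dusp1 and Rgs2, and all but Egr2 encode feedback regulators of receptor or kinase signalling. Immediate-early and MAP kinase feedback genes had 7 of 27 lower and 4 higher, with a median of -0.15.

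In the prostaglandin and leukotriene list, which also holds the endocannabinoid genes Cnr2 and Daglb, 5 of 19 measured genes were higher and 2 lower. The median was 0.21. The fallen members were PGE2 synthases, Ptges and Ptges2 (-0.53). The risen members were Cnr2, Daglb (0.92), Pla2g15 (0.72), Alox5ap (0.64) and Tbxas1 (0.39). Daglb makes the endocannabinoid 2-arachidonoylglycerol, Alox5ap presents arachidonic acid to the 5-lipoxygenase and Tbxas1 makes thromboxane. Daglb averaged 5141 ± 759 with NS398 and 2696 ± 172 without (SD, n = 4 each). A different Daglb probe changed by 0.48, which did not pass (limma adjusted p = 0.051). Ptger2, the EP2 receptor, measured 251 ± 15.8 with NS398 and 198 ± 17.1 without (SD, n = 4 each), and its change of 0.34 did not pass (limma adjusted p = 0.057).

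Of 35 osteoclast genes measured, 2 were higher and 2 lower, shares near or below those of all named genes, with a median of -0.16. The count of lower genes was 7 with the r mark (a letter after some title numbers, of unstated meaning) as a block, an alternative chosen after seeing the data, 5 with array weights, 4 without untreated array 3, and 1 without NS398 array 17 or 18 or untreated array 2 or 4. Trem2 (0.76) and Cd9 (0.68) rose, and Ocstamp (-0.44), needed for cell fusion, and Slc4a2 (-0.44), the chloride and bicarbonate exchanger of the osteoclast, fell. Ocstamp and Trem2 lost their calls when only these groups were fitted, and Ocstamp also without the arrays that carry the r mark. Cd9 lost its call without NS398 array 18 or untreated array 2 or 4, and after background subtraction. Slc4a2 lost its call without NS398 array 17 or 18 or untreated array 2 or 4. The Slc4a2 call was also lost when only these groups were fitted, after background subtraction, and with a trended and robust variance model. Ctsk, which encodes the collagen-degrading protease cathepsin K, measured 23903, 21229, 19786 and 19338 with NS398 and 25246, 28152, 24509 and 34494 without. The groups did not overlap, but the log2 change of -0.41 ± 0.12 did not pass (limma adjusted p = 0.057). Mmp9, a gelatinase, changed by -0.18 (limma adjusted p = 0.54), Acp5, the tartrate-resistant acid phosphatase, by 0.11 (limma adjusted p = 0.92), Nfatc1, the master transcription factor of osteoclasts, by -0.20 (limma adjusted p = 0.71) and Dcstamp, the fusion receptor, by -0.66 (limma adjusted p = 0.14). The receptor for RANKL itself, Tnfrsf11a, averaged 1191 ± 171 with NS398 and 1174 ± 553 without (SD, n = 4 each), with overlapping arrays. Genes that restrain osteoclast formation had 3 of 16 higher (Id1, Dok1 and Dok2) and 3 lower (Id3, Ikzf1 and Nfkbie), with a median of 0.01. Dok1 lost its call without NS398 array 17 or 18 or untreated array 2, and Id3 without NS398 array 13 or 16r or untreated array 2 or 4. Both also lost it without the arrays that carry the r mark. Dok1 lost it too after background subtraction and with a trended and robust variance model, and Id3 when only these groups were fitted. The Id3 groups overlapped, with 222.5 in NS398 array 17 and 215.4 in untreated array 3.

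**Figure D2:**
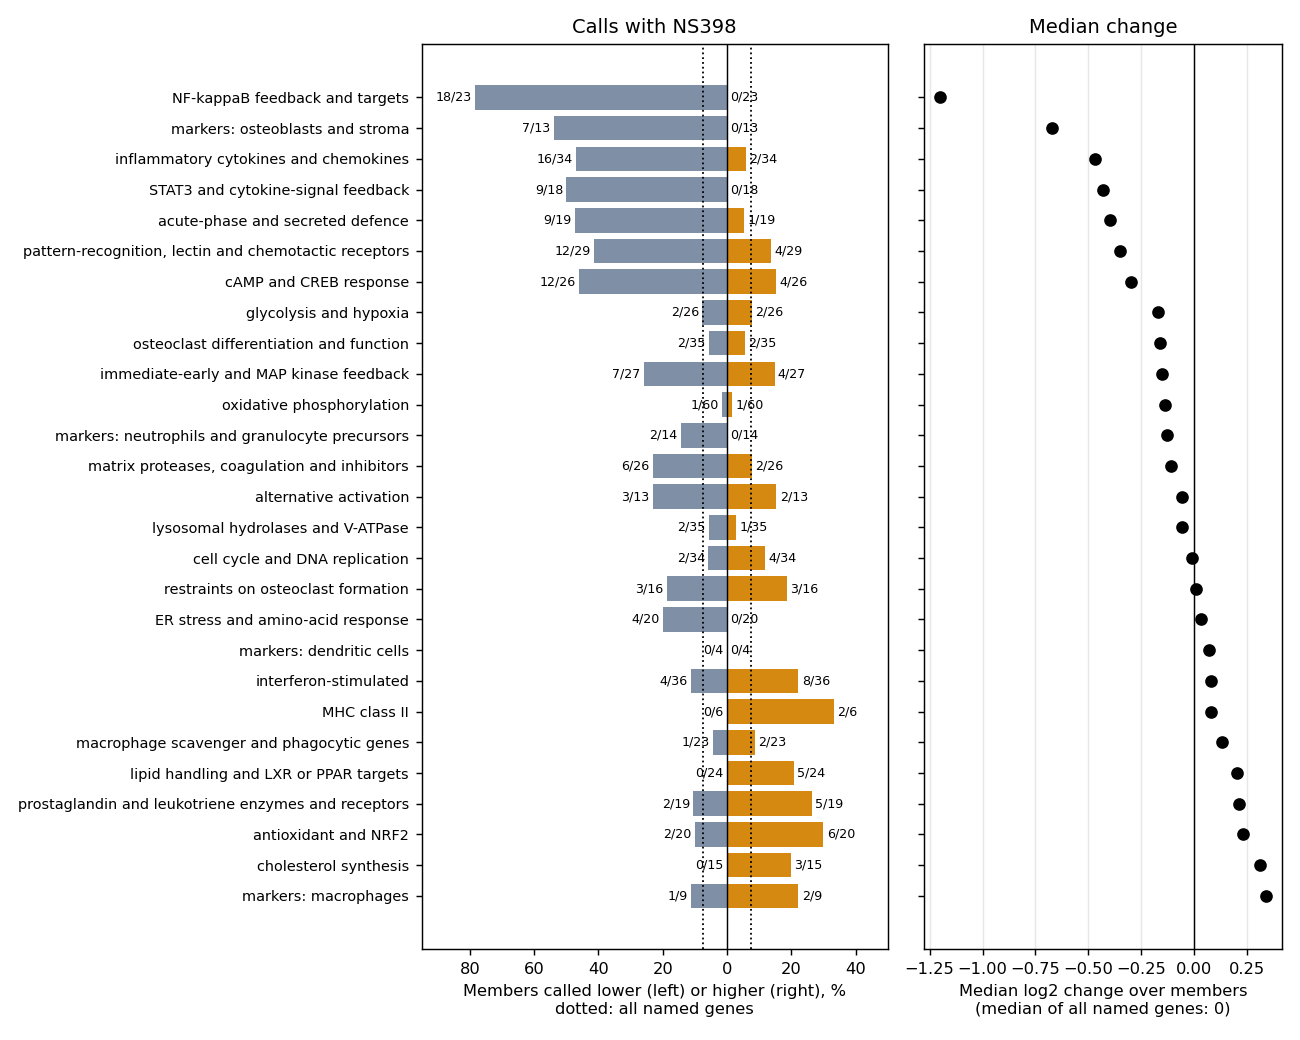
Share of the measured members of each gene list called lower and higher with NS398, in percent, with dotted lines at the shares over all named genes of 7.43% and 7.36%, and the median log2 change of each list. NF-kappaB genes have the highest share of lower members (18 of 23), and osteoclast genes lie near the dotted lines.

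Interferon-stimulated genes went both ways, with 8 of 36 higher and 4 lower and a median of 0.08. Those that rose are mostly genes of the type I interferon response, such as Ifit3 at 392 ± 19.8 with NS398 and 237 ± 14.8 without (SD, n = 4 each) and Rsad2 (viperin) at 1065 ± 127 with NS398 and 629 ± 29.9 without (SD, n = 4 each). The fallen members were Irf1 (-1.83), the interferon regulatory factor that NF-kappaB also induces, and the guanylate-binding proteins Gbp4 (-1.37), Gbp2 (-1.18) and Gbp5 (-0.73). The count of higher members was 5 without NS398 array 18 and 5 without untreated array 4. Of 6 MHC class II genes 2 were higher and 0 lower, with a median of 0.08. Alternative activation genes had 2 of 13 higher and 3 lower.

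Metabolic lists leaned upward for lipids. Lipid handling genes had 5 of 24 higher and 0 lower, with a median of 0.20, and 3 higher when untreated array 2 or untreated array 4 was left out. Soat1 also lost its call without NS398 array 13. The higher genes were Lpl (lipoprotein lipase, 0.88), Soat1 (which esterifies cholesterol, 0.76), Acaca (which makes malonyl-CoA, 0.32), Lpar6 and Pparg (a lipid-sensing nuclear receptor, 0.83). A different Pparg probe changed by -0.03. Cholesterol synthesis had 3 of 15 higher, among them Sqle and Hsd17b7, and 0 lower, with a median of 0.31 and 13 of 15 log2 changes above 0. Antioxidant and NRF2 genes had 6 of 20 higher and 2 lower. Gpx3, a secreted glutathione peroxidase, averaged 998 ± 91.4 with NS398 and 399 ± 80.5 without (SD, n = 4 each), and Slc40a1, the iron exporter ferroportin, rose by 1.13, while Slc7a11, the cystine importer, fell by 1.36 on the log2 scale. The count of lower antioxidant genes was 1 without NS398 array 13, NS398 array 16r, or untreated array 2, 4 or 6.

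Cell cycle and DNA replication had 4 of 34 higher and 2 lower, with a median of -0.01. The risen ones include genes of opposite function, Ccnd1 and Cdkn1c (1.11), an inhibitor of cyclin-dependent kinases. Glycolysis and hypoxia had 2 of 26 higher and 2 lower, oxidative phosphorylation 1 of 60 higher and 1 lower, and lysosomal hydrolases and V-ATPase 1 of 35 higher and 2 lower. Matrix proteases and their inhibitors had 6 of 26 lower and 2 higher, led by Timp1, a metalloproteinase inhibitor, at 273 ± 78.0 with NS398 and 1364 ± 305 without (SD, n = 4 each). Mmp12, the macrophage elastase, rose by 1.27. Scavenger and phagocytic genes had 2 of 23 higher and 1 lower, the last being Fcgr2b, the inhibitory IgG receptor (-2.04). Stress genes of the endoplasmic reticulum and the amino-acid response had 4 of 20 lower and 0 higher, with Nupr1 at -1.60. Leaving out 1 of several arrays, among them NS398 arrays 13, 16r, 17 and 18 and untreated arrays 2, 3, 4 and 6, moved some of these small counts by more than 1.5 times. These were the lower count of the cell cycle list and both counts of the oxidative phosphorylation, lysosome, osteoclast and restraint lists. The higher count of the matrix list was 1 without NS398 array 16r or untreated array 6.

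The level of some lists differed between the pairs of arrays within a group. The mean log2 intensity of 60 oxidative phosphorylation genes was 11.52, 11.54, 12.28 and 12.29 in NS398 arrays 13, 16r, 17 and 18, and 12.30, 11.74, 12.31 and 11.80 in untreated arrays 2, 3, 4 and 6. Arrays 17 and 18 with NS398 and arrays 2 and 4 without were thus alike and higher than their group mates, by more than the groups differed. The lysosomal list ran the other way, at 11.90, 11.87, 11.61 and 11.59 with NS398 and 11.67, 11.85, 11.62 and 11.79 without. The NF-kappaB list was at 10.06, 9.99, 9.88 and 9.83 with NS398 and 11.07, 10.94, 11.05 and 11.01 without. Here arrays 17 and 18 were the lowest with NS398, while arrays 2 and 4 were the highest without it. Array 6 lay closer to array 4 than to array 3, so the untreated pairs were not clear. Every NS398 array lay below every untreated array. The part of this within-group difference in any single gene was not tested.

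**Figure D3:**
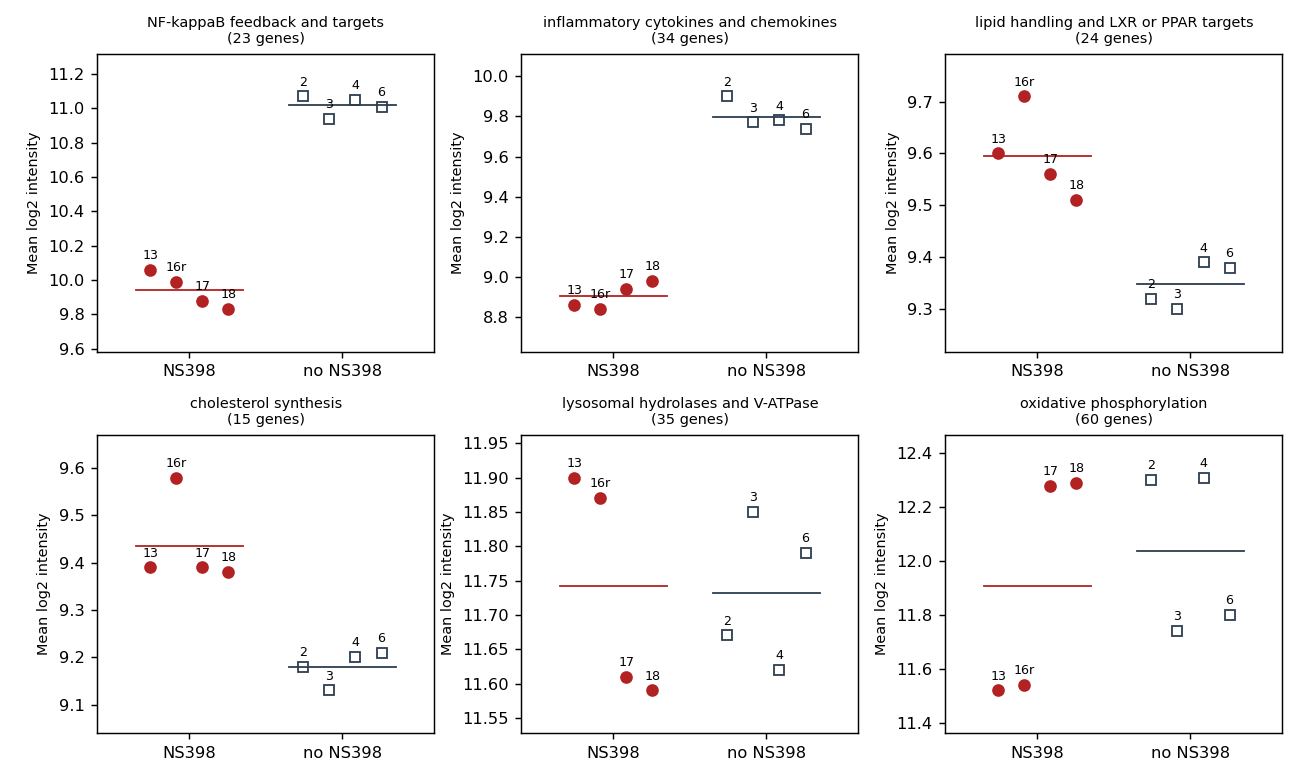
Mean log2 intensity of the measured members of 6 gene lists on each NS398 array (left in each panel) and each untreated array, by title number. NF-kappaB, cytokine, lipid and cholesterol lists separate the groups, while the oxidative phosphorylation and lysosomal lists separate pairs of arrays inside each group.

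Markers of other cells were measured beside these groups. Of the macrophage markers 2 of 9 were higher (Lyz and Trem2) and 1 lower (Cd14), with a median of 0.34. Cd68, the lysosomal glycoprotein of macrophages, averaged 26933 ± 1641 with NS398 and 23388 ± 1716 without (SD, n = 4 each), and Csf1r, the receptor for M-CSF, 1743 ± 489 with NS398 and 2045 ± 510 without (SD, n = 4 each). Neither change passed (limma adjusted p = 0.4 and 0.79), which does not show that the levels were equal. Granulocyte markers had 2 of 14 lower, S100a8 (-1.71) and Lcn2, with 4 lower without untreated array 3. Their median was -0.13, with 12 log2 changes below 0 and 2 above. The summed intensity of these markers ranged over 2247 to 3004 with NS398 and 3650 to 5220 without. Elane, Mpo and Prtn3, the primary granule proteases and peroxidase, averaged 138 to 162 in both groups. This is close to the lowest signal of a detected probe, 127.9 with NS398 and 122.3 without, so a fall could hardly be seen there. Osteoblast and stromal markers had 7 of 13 lower and 0 higher, with a median of -0.67. When a gene with several probes was taken at the median of its probes, that median was -0.42. Their summed intensity ranged over 2375 to 2644 with NS398 and 4022 to 5431 without. Acta2 (smooth muscle actin) averaged 572 ± 82.8 with NS398 and 1787 ± 390 without (SD, n = 4 each), a log2 change of -1.63. Its other probes changed by -0.91, -0.44 and -0.39, and the last did not pass (limma adjusted p = 0.051). Col1a1, the main collagen of osteoblasts, was not above background with NS398 at 147 ± 13.9 and measured 196 ± 47.5 without (SD, n = 4 each, limma adjusted p = 0.13). Of dendritic cell markers 0 of 4 were called, 0 of 12 B cell markers carry a name, Lck was the T cell marker measured (-0.06), and Hdc, the mast cell and basophil marker, was at least 1.48-fold lower with NS398. The part of stromal and granulocyte cells in the other changes was not tested.

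Loss of the Cox2 gene, measured against the same 4 untreated arrays, gave 650 probes higher and 558 lower in KO cells. Because both comparisons share those arrays, their values are given side by side and the NS398 and KO arrays were compared directly. For the 15 largest falls with NS398 the log2 change of KO against WT ran between -4.85 and -1.86, and for the 15 largest rises between 0.65 and 2.55. Il1b changed by -5.62 with NS398 and by -4.67 in KO cells, and Saa3 by -4.72 with NS398 and by -4.85 in KO cells.

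Set directly against KO cells, NS398-treated WT cells had 70 probes higher and 70 lower, 0.369% of all probes in each direction. Among named genes 54 were higher, or 0.947%, and 57 were lower, or 0.999%. These counts depend on the settings more than those of NS398 against no inhibitor. The lower count was 37 without NS398 array 17, 36 without NS398 array 18 and 44 without KO array 8. The 15 largest falls and 15 largest rises were chosen by their change on these same NS398 arrays. That choice favours levels with NS398 that lie beyond those of KO cells. Of the 15 largest falls, 3 reached a lower level with NS398 than in KO cells, which were Il1b (-0.95, limma adjusted p = 0.00092), Cxcl1 (-0.85, limma adjusted p = 0.012) and Tnf (-0.70, limma adjusted p = 0.017). Of the 15 largest rises, 3 reached a higher level with NS398, which were Rgs1 (1.32, limma adjusted p = 0.00011), Cd74 (0.81, limma adjusted p = 0.00092) and Egr2 (0.72, limma adjusted p = 0.0043). H2-Ab1 was higher with NS398 than in KO cells by 0.71 at its leading probe, which did not pass (limma adjusted p = 0.053), and by 0.69 at another, which did (limma adjusted p = 0.024). For the other genes of both groups the difference did not pass at the leading probe, which does not show that the levels were equal.

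Vegfa, Ccn2 and Tlr2 passed for NS398 against untreated WT and not for KO against WT. Vegfa, the angiogenic growth factor, measured 400, 506, 425 and 560 with NS398, 1532, 1641, 1268 and 1401 in KO cells, and 1247, 1245, 958 and 955 in untreated WT cells. NS398 arrays were the lowest of the 3 groups without overlap. The log2 difference of NS398 against KO was -1.63 (limma adjusted p = 6.3e-06), that against untreated WT -1.22 (limma adjusted p = 3.4e-05), and that of KO against WT 0.41 (limma adjusted p = 0.1). Ccn2 (connective tissue growth factor) measured 485, 466, 398 and 427 with NS398, 1163, 1304, 1132 and 861 in KO cells, and 1142, 1333, 1297 and 1349 in untreated WT cells, a log2 difference of NS398 against KO of -1.32 (limma adjusted p = 1.5e-05). Tlr2 differed by -1.20 from KO cells (limma adjusted p = 0.015), a call lost without KO array 8 or NS398 array 17 or 18, and when only these groups were fitted. KO cells measured 19620, 21727, 18469 and 21946 for Tlr2, each below every untreated WT array. Their log2 change against untreated WT was -0.44 and did not pass (limma adjusted p = 0.32). Acta2 was lower than in KO cells by 1.13 on the log2 scale (limma adjusted p = 0.00043), and Cdkn1c was higher by 1.08 (limma adjusted p = 5.3e-05). In the other direction Fpr2 averaged 2255 ± 447 with NS398, 1271 ± 145 in KO cells and 9977 ± 1541 in untreated WT cells (SD, n = 4 each), so the fall was deeper in KO cells (log2 difference 0.81, limma adjusted p = 0.0087).

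The widest differences between NS398-treated and KO cells were at probes that did not pass for NS398 against no inhibitor. Csrp1, a LIM domain protein, measured 132, 137, 146 and 134 with NS398, 951, 1157, 1029 and 1134 in KO cells, and 136, 146, 136 and 146 in untreated WT cells. It was not above background in either WT group and was at least 7.63-fold lower with NS398 than in KO cells (limma adjusted p = 7.1e-12). Sri, the calcium-binding protein sorcin, was not above background in KO cells. It measured 1399, 1452, 2022 and 2086 with NS398, 158, 145, 126 and 146 in KO cells, and 2367, 1707, 2963 and 1432 in untreated WT cells, at least 11.7-fold higher with NS398 than in KO cells (limma adjusted p = 2.2e-08). Traf6, the adaptor that carries the RANKL signal, was not above background at the probe used with NS398 or in untreated WT cells. It averaged 123 ± 6.10 with NS398, 291 ± 23.3 in KO cells and 128 ± 9.11 in untreated WT cells (SD, n = 4 each). Its level was at least 2.13-fold lower with NS398 than in KO cells. In the separately normalized 1-day arrays of WT cells, the same probe averaged 571 with RANKL and M-CSF and 485 with M-CSF alone. H2-Ea, an MHC class II chain gene, was at least 2.33-fold lower with NS398 than in KO cells, and Abhd1 at least 2.91-fold higher. Cd300ld (2.73), Manbal (1.83), Fam126a (1.68) and Srxn1 (1.63) were likewise higher with NS398 than in KO cells, and Uap1 (-1.58) and H2-K2 (-1.28) lower, on the log2 scale. At the probes used, none of these, from Csrp1 to H2-K2, passed the test for NS398 against untreated WT, but 2 other probes of Srxn1 rose with NS398, by 1.10 and 0.66 on the log2 scale. Prcp (2.17) and Atg9b (1.57) were higher than in KO cells and also rose with NS398, by 0.80 and 0.66.

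**Figure D4:**
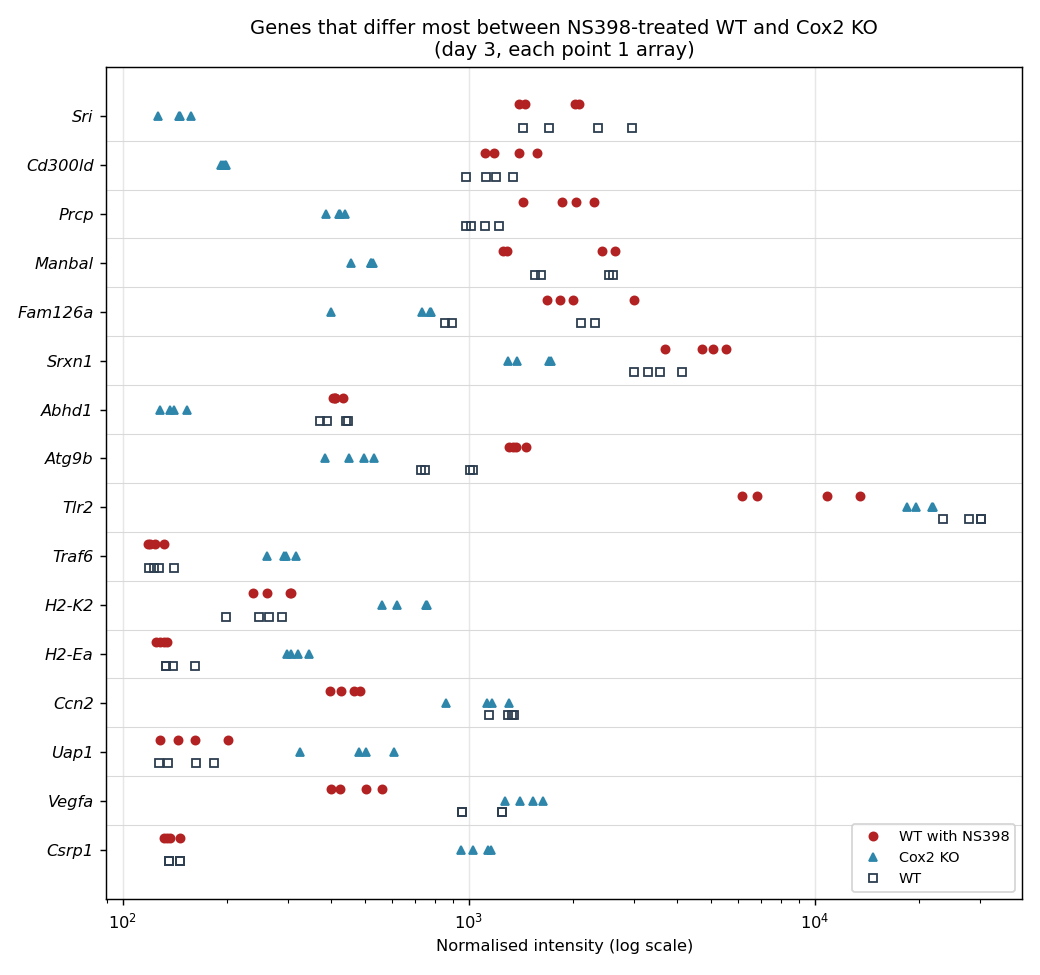
Intensity on each array, on a log axis, of 16 genes that differed between NS398-treated WT and KO cells, shown for WT cells with NS398, KO cells and untreated WT cells. Vegfa, Ccn2 and Tlr2 are lowest with NS398, while Csrp1, Sri and Traf6 differ between KO cells and both WT groups.

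PGE2 given to KO cells moved the NS398 genes the opposite way in arrays that share none with the NS398 comparison. Of all probes 1145, or 6.04%, were higher and 1416, or 7.47%, lower with PGE2, and of named genes 860, or 15.1%, and 970, or 17%. Of the 563 probes lower with NS398, 369 (65.5%) were higher with PGE2 and 2 (0.4%) lower, with a median log2 change of 0.51. They make up 32.2% of all probes higher with PGE2. Of the 118 that were lower by 1 or more, 108 (91.5%) were higher with PGE2 and 0 lower. Of the 563 probes higher with NS398, 412 (73.2%) were lower with PGE2 and 3 higher, with a median of -0.57, and they make up 29.1% of all probes lower with PGE2. The median over all probes was 0.

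All 15 of the largest falls were higher with PGE2, by 1.77 to 5.94 on the log2 scale. Saa3 averaged 12081 ± 3371 in KO cells with PGE2 and 194 ± 34.8 in KO cells without (SD, n = 4 each), and Il1b 23077 ± 3053 with and 725 ± 71.3 without. Ptges (4.14), Arg1 (4.10) and Socs3 (3.72) were next. At the low end were Pdpn (2.78), Il1a (2.52), Cd40 (2.45), Tnf (2.09) and Ccrl2 (1.77). All 15 of the largest rises were lower with PGE2, with log2 changes between -2.71 and -0.74. Some genes departed from this. Cd83 changed by 0.06 with PGE2 (limma adjusted p = 0.8), Vegfa by 0.09 (limma adjusted p = 0.77) and Tlr2 by 0.25 (limma adjusted p = 0.57), although each had fallen with NS398, and Ifit3 changed by 0.05 (limma adjusted p = 0.75).

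Among the lists, with PGE2 in KO cells 15 of 23 NF-kappaB genes were higher and 0 lower, 21 of 34 cytokines and chemokines were higher and 1 lower, and 9 of 13 stromal markers were higher and 0 lower. Lipid handling had 1 of 24 higher and 9 lower, and lysosomal genes 1 of 35 higher and 12 lower. Granulocyte markers had 7 of 14 higher and 0 lower. Stromal markers thus moved with the other genes in both comparisons, while with NS398 only 2 of 14 granulocyte markers were called, both lower. The part of stromal and granulocyte cells was not tested.

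The NS398 genes were also set beside the change by RANKL at 1 day in WT cells, measured in separately normalized arrays. There 2847 of 16237 probes kept in both experiments, or 17.5%, were higher with RANKL and M-CSF than with M-CSF alone, and 3444, or 21.2%, were lower. Of 558 such probes lower with NS398, 367 (65.8%) were higher with RANKL and 55 (9.9%) lower. Of 558 higher with NS398, 346 (62%) were lower with RANKL and 75 (13.4%) higher. Of the 15 largest falls 14 were higher with RANKL, up to a log2 change of 7.76 for Chil1, and Tnf was lower (-0.57). Of the 15 largest rises 12 were lower with RANKL and 2 higher, with Ccnd1 at -3.07.

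Ctsk and Mmp9, which did not pass for NS398, changed by 6.05 and 3.38 with RANKL at 1 day. Some chemokines fell with both. Ccl3 changed by -0.94 and Ccl4 by -0.89 with RANKL at 1 day. Each was higher with PGE2 in KO cells, by 2.64 for Ccl3 and 2.58 for Ccl4.

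**Figure D5:**
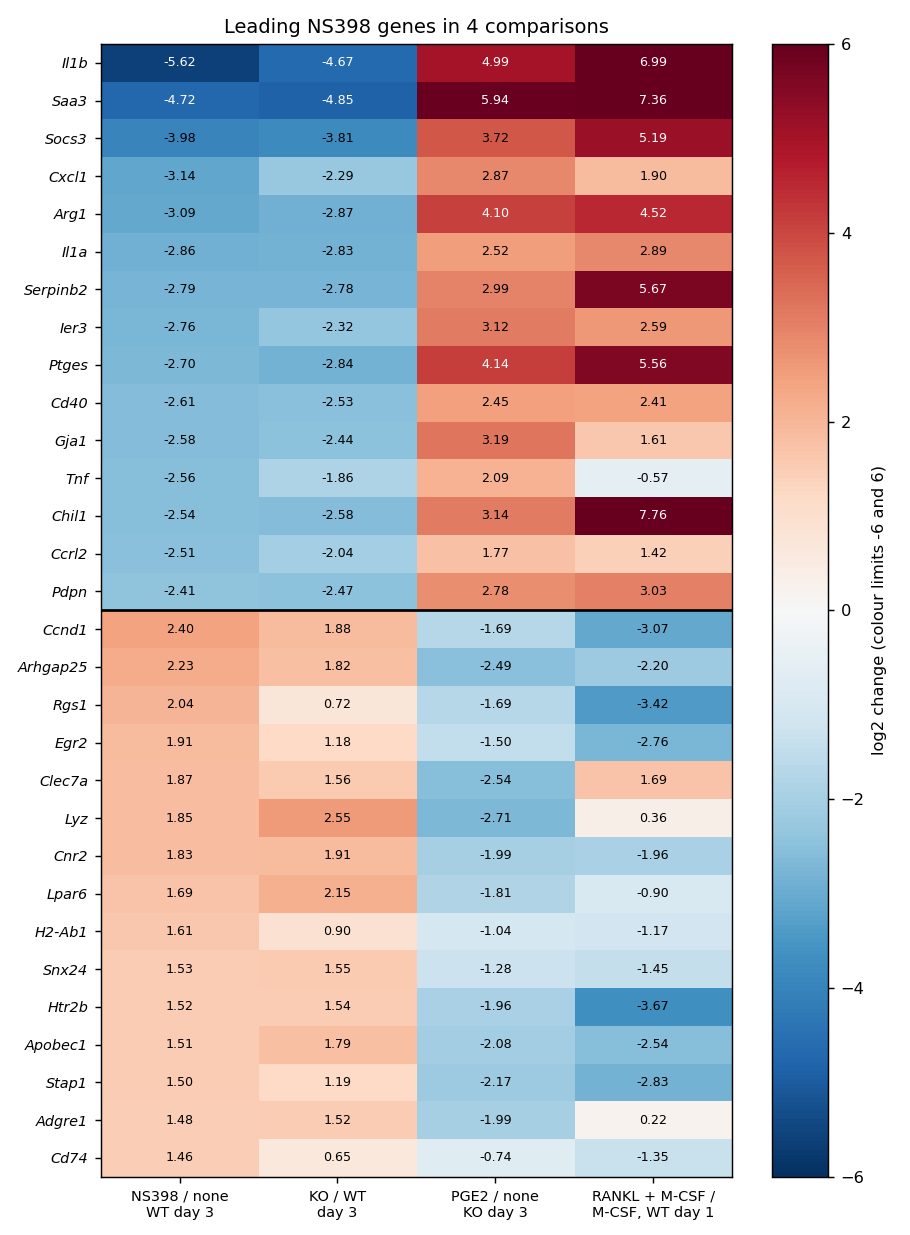
Heat map of the log2 change of the 15 largest falls and 15 largest rises in NS398 against no inhibitor, KO against WT, PGE2 against none in KO cells, and RANKL with M-CSF against M-CSF alone at 1 day. The first 2 columns share the untreated WT arrays, and the signs in the PGE2 column are opposite to those in the NS398 column for all 30 genes.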

How the data were processed

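Total RNA from cultured macrophages was labelled as biotin-cRNA and hybridised to Illumina bead arrays, per the labels' protocols. Per the submitters' processing notes, GenomeStudio was used, with its version not given in the sources used here. The authors deposited linear intensity values, which have the same distribution on all 16 arrays of the 3-day experiment and so were taken as quantile normalized. They also deposited comparison tables with a group detection p-value, a ratio of group means and a signed differential score (DiffScore), per the file headers. These tables named 7244 of 25697 probes. Their 5838 symbols were checked in RefSeq (GRCm38.p6), where 3969 are current and 1702 were renamed through a synonym, and the other 167, Lyz included, were left as they stood.

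Intensities were taken to log2 after a floor of 32, which no value reached. Probes above the 40th percentile of their array in at least 4 of the 16 arrays were kept (18961), and in at least 3 of 10 arrays of the 1-day experiment (17211). Each experiment was fitted with limma 3.58.1 (R 4.3.3), lmFit and eBayes, all its arrays together and each group with its own mean, two-sided, with Benjamini-Hochberg adjustment over all probes kept and a call at an adjusted p under 0.05. The standard errors are those of the fit. A group detection p-value of 0.05 or more counts as not above background. A fold from such a group is given as "at least", with the dim group at the higher of its own signal and the lowest signal on that array among probes detected in the group. On simulated data with 200 of 18961 probes changed, the fit for NS398 recovered 67.5% at a log2 change of 0.5 and 97% at 1. Of the calls made, 2.17% and 3.96% were false. The simulated arrays were drawn independently, whereas the real arrays fell into close pairs, so these rates may not hold for the real arrays. Of 924 probes in the authors' deposited NS398 table, 835 were called here, all in the same direction, and 291 further probes were called.

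Genes described are the 15 largest called rises and falls with no overlap between arrays, in each list the 4 called members of smallest p, Saa3 and Il1b, the 8 highest and 8 lowest against KO, and the falls with the largest and smallest change under PGE2. Clone names were left out, and the single results of a few list members are not reported here. Further list members, among them those that did not pass, were chosen after their values were seen. The 30 lists overlap, and their members and all rules were chosen with earlier results of these data known. Alternatives covered the filter, scaling, background, variance model, arrays in the fit and leaving out each array.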

Additional observations from a re-analysis of the deposited data

Results flagged for a closer look

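In 4 of 60 groups of 4 arrays tested among the 30 leading genes, 1 array lay far from the other three, with a gap to its nearest neighbour above Dixon's critical share of the group's range. Chance alone gives such a gap in about 1 in 20 groups. Arg1 measured 152.3 in NS398 array 16r and 138.8 to 139.4 in the other NS398 arrays, all at a level not above background. Serpinb2 measured 196.4 in NS398 array 13 and 154.7 to 160.3 in the others. Cd40 measured 531.3 in NS398 array 17 and 645.0 to 658.2 in the others. Pdpn measured 8471 in untreated array 6 and 5713 to 6007 in the other untreated arrays. All 4 genes kept their call when any single array was left out.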

How the results depend on the processing

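NS398 against no inhibitor gave 368 to 754 higher and 416 to 818 lower probes over 11 settings, against 563 each. Background subtraction left 368 higher. Leaving out single arrays gave 373 to 619 higher and 417 to 600 lower, with 373 higher without untreated array 2. Against KO cells (70 each way), fitting these groups alone left 42 lower, array weights gave 152 higher and 160 lower, leaving out arrays with the r mark left 44 higher, background subtraction left 39 lower, and the r mark as a block, an alternative chosen after seeing the data, gave 106 lower. Leaving out single arrays gave 51 to 79 higher and 36 to 81 lower there. For PGE2 in KO cells it gave 722 to 1263 higher (722 without KO array 8, 763 without KO array 24r with PGE2) and 934 to 1479 lower (934 without KO array 8). The causes were not tested. The sign of a value turned in the median of the cell cycle list, at 0.003 with the median over the probes of a gene against -0.009, and in no other value of the settings tried. Of 98 probes chosen by the rule for NS398, 83 kept their call under every setting and leave-out, among them the 30 leading genes, and 15 lost it in at least 1. Because the rule picked large changes or small p-values in the main fit, this share does not describe all called probes. No paired analysis was possible because the NS398 and untreated arrays share no title number and the labels give no other pairing. Few arrays and dim probes near background limit what can be seen of small changes.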
